A study of Mus musculus with 12 samples.

Results

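Clec4a1, Clec4a2, Clec4a3, Clec4d, Clec4e, Clec4n, Clec5a, Clec9a and Clec10a encode C-type lectin receptors of myeloid cells, and their transcripts were followed in single cells of mouse tumors. The set was chosen by gene name and held 10 genes, of which 9 had a row among the 27457 genes listed. Clec7a was not analysed here. The values came from 10x 5′ single-cell RNA sequencing as counts of unique molecular identifiers (UMIs), the barcodes that let each captured transcript be counted once. They were summed by cell cluster and by tumor and are given as CPM, the gene's UMIs per 1000000 UMIs of the same cells. A tumor was 1 hashtagged specimen of 1 pooled library.

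The 48 tumors came from MC38, a colon carcinoma line of the C57BL/6J (B6) background, grown under the skin of female mice aged 8 to 12 weeks. Hosts were B6 animals or F1 animals of B6 and a Collaborative Cross (CC) strain, an inbred line that carries haplotypes of several founder strains. At 75 to 110 mm3 each tumor-bearing animal was given 200 µg of isotype control antibody (2A3) or of antibody against PD-1 (29F.1A12, aPD1), and tumors were taken 48 h later and sorted to 90% CD45+ and 10% CD45- cells. All groups therefore carried the same tumor line and an injected antibody. Responder strains were CC001 (4 isotype and 4 aPD1 tumors), CC002 (3 and 3) and CC075 (3 and 3), and non-responder strains were CC036, CC079 and CC080 (3 and 3 each). This class comes from the study's own growth measurements in other animals and not from the sample labels, and each class holds only 3 strains, so tumors of 1 strain are not independent samples of a class. B6 (3 and 3) and CC007 (2 and 2) tumors had no class. Of the CC080 tumors 2 carry 1 animal identifier, and both were kept.

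C-type lectin receptors recognise sugars, lipids or other ligands on microbes and damaged cells through a lectin-like domain. Some, such as Mincle (Clec4e), MCL (Clec4d) and Dectin-2 (Clec4n), signal through the Fc receptor gamma chain (Fcer1g), the kinase Syk and the adaptor Card9, which turns on inflammatory cytokine genes. MDL-1 (Clec5a) signals through the adaptor DAP12 (Tyrobp). DCIR (Clec4a2) carries an inhibitory motif that recruits phosphatases. DNGR-1 (Clec9a) binds actin filaments exposed on dead cells and is a marker of cross-presenting type 1 conventional dendritic cells (cDC1), and MGL1 (Clec10a) binds galactose-type sugars on macrophages and dendritic cells.

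Of these genes 8 lie on chromosome 6 of the mouse genome (GRCm38, GENCODE annotation) and all 9 are annotated as protein-coding. The 6 Clec4 genes lie within 368.0 kb. In order these are Clec4a1 (chr6:122921848-122934619, plus strand), Clec4a3 (chr6:122952515-122969875, plus), Clec4a2 (chr6:123106428-123143999, plus), Clec4n (chr6:123229843-123247021, plus), Clec4d (chr6:123262111-123275265, plus) and Clec4e (chr6:123281789-123289870, minus). Clec5a (chr6:40574894-40585821, minus) and Clec9a (chr6:129408862-129424763, plus) lie apart from them, and Clec10a lies on another chromosome (chr11:70156197-70170834, plus). The Clec4a genes resemble each other in sequence, so reads may be split between them and their values are uncertain to that extent. Reads of F1 hosts were aligned to the B6 reference, and the effect of founder alleles on these counts was not tested.

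Clec4d and Clec4e, neighbours on chromosome 6, had the highest levels in the same cluster, so the 250 bases before their RefSeq start sites (GRCm38.p6) are shown 5′ to 3′ on the strand of each gene. Clec4d is at chr6:123261857-123262106, plus strand, and Clec4e at chr6:123289872-123290121, minus strand. Capitals mark the letters TTNCNNAA, read on either strand, a degenerate form of a C/EBP-type motif.
Clec4d: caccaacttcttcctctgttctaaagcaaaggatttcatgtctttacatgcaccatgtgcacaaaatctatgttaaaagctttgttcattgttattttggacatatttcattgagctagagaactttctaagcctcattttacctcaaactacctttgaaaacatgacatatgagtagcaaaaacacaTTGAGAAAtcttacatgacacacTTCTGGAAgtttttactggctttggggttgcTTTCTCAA
Clec4e: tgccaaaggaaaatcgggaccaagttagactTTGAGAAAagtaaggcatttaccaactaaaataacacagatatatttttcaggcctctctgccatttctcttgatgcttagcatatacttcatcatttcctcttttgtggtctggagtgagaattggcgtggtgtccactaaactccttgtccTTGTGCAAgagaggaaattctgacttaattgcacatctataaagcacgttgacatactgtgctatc
The letters stood 3 times before Clec4d and 2 times before Clec4e. Of 7 of the 9 genes with an entry among 32851 promoters of this length, 4 held TTNCNNAA, which 36.85% of all promoters held. GAGGAAG, a PU.1-type motif also read on either strand, stood in 3 of the 7 and in 10.61% of all promoters. Both are matches of letters and not measured binding.

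Tumors held 53 to 3082 cells and 88816 to 17713491 UMIs, and 3 of 48 tumors had fewer than 500 cells. The median cell had 3333.5 UMIs. Among the 93126 cells, 10176 (10.93%) had a barcode that also occurred in another library. The authors' 27 clusters carry only numbers in the deposited tables and were named here by markers, while the paper calls cluster 6 Xcr1+ Clec9a+ DC, cluster 14 Cd209a+ DC and cluster 18 plasmacytoid DC. It lists cluster 11 as DC1. Cells of clusters 2, 5 and 26 with a high score for interferon gamma response are its stimulated macrophages, which it reports as enriched in responders. Clusters 2, 4, 5, 9, 15, 17, 19, 21, 26 and 27 were macrophage-like (68059 cells, called macrophages below), cluster 6 was cDC1-like, 11 migratory dendritic cell-like, 18 plasmacytoid dendritic cell (pDC)-like and 16 granulocyte-like, and clusters 14, 20 and 25 were left unnamed. Clec4n, Clec5a and Clec9a stand among the 10 leading genes of clusters 2, 5 and 6, and all clusters were made from these cells, so levels by cluster are a description without a test.

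Macrophages held most UMIs of 7 of the 9 genes. Their share was 95.1% for Clec4a1, 93.13% for Clec4a2, 93.56% for Clec4a3, 94.43% for Clec4d, 92.54% for Clec4e, 89.82% for Clec4n and 94.37% for Clec5a. Clec9a and Clec10a were spread over more cell groups. Clec9a had 48.11% of its 5498 UMIs in cDC1-like cells, 35.79% in macrophages, 8.985% in cluster 14 and 3.529% in pDC-like cells, although macrophages averaged only 6.538 CPM. Clec10a had 45.82% of its 9194 UMIs in cluster 14 and 42.52% in macrophages.

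**Figure D1:**
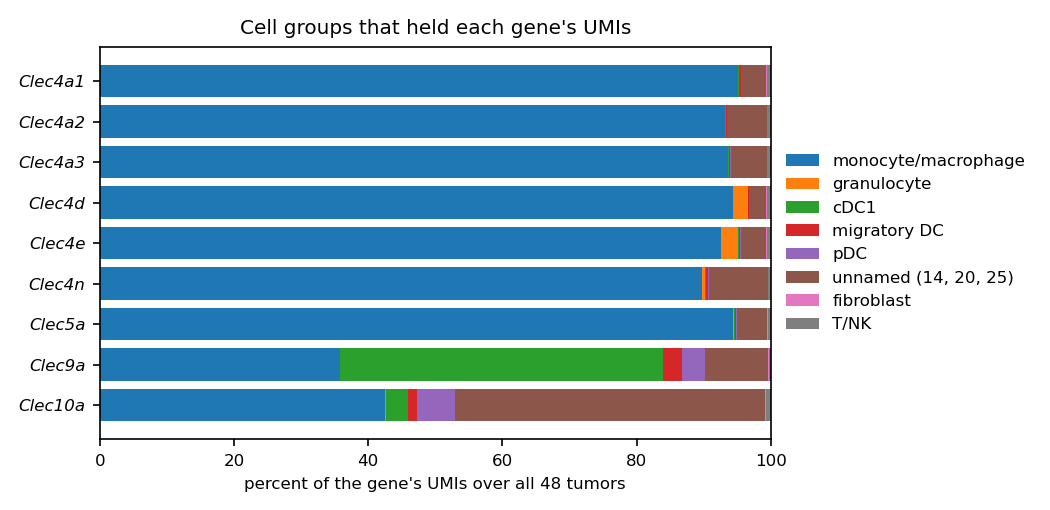
Share of each gene's UMIs held by each cell group, in percent of the gene's UMIs over all 48 tumors (horizontal axis); each bar is 1 gene and each colour a cell group. Macrophages hold at least 89.82% for the first 7 genes, and 35.79% of Clec9a and 42.52% of Clec10a.

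The Clec4a genes, among them the inhibitory receptor gene Clec4a2, had broad macrophage levels. Clec4a1 was highest in cluster 9 at 195.2 ± 66.8 CPM (SD, n = 20 tumors with at least 20 cells of the cluster), then in cluster 26 at 184.2 ± 50.2 CPM (n = 47). Clec4a2 was highest in cluster 15 at 274.1 ± 50.5 CPM (n = 5) and next in cluster 9 at 247.0 ± 86.5 CPM. Clec4a3 had 223.9 ± 79.7 CPM in cluster 9 and 223.1 ± 52.4 CPM in cluster 4. For each of the 3 genes, no neighbours at the top of this order differed beyond their SDs.

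The activating receptors Clec4d and Clec4e had their highest levels in cluster 16, the granulocyte-like cells. In the 7 tumors with at least 20 such cells, Clec4d was at 713.9 CPM in CC079 isotype, 1602 in CC001 isotype, 1722 in CC080 isotype, 1847 in CC002 aPD1, 2330 and 3216 in the CC075 isotype tumors, and 2362 in CC001 aPD1. Clec4e in the same tumors, in that order, was at 771 CPM, 2610, 1878, 2270, 3253 and 2599, and 5075. Each of the 7 values of Clec4d lay above the mean of every other cluster, and so did those of Clec4e. The mean of Clec4d was 1970 ± 777.3 CPM (SD), against 369.3 ± 132.0 CPM in cluster 27, the next in order, and Clec4e had 2637 ± 1324 CPM against 301.9 ± 114.6 CPM in cluster 4. These gaps exceeded the SDs. Cells of cluster 16 were shallow, with a median of 815 UMIs, and each tumor's value rests on 25 to 197 UMIs of Clec4d.

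By the mean over tumors Clec4n and Clec5a were also highest in cluster 16, but within the spread of the next cluster. Clec4n had 1066 ± 749.4 CPM there, from 187 to 2379 CPM, and the lowest value came from the CC001 isotype tumor with the most granulocyte-like cells (115). It had 500.8 ± 163.6 CPM in cluster 2 (n = 47) and 384.0 ± 132.2 CPM in cluster 5. Clec5a had 236.1 ± 65.4 CPM in cluster 16 and 201.8 ± 62.6 CPM in cluster 5, and the order of its top 4 clusters, ending with clusters 2 (169.8 ± 57.4 CPM) and 17 (156.8 ± 32.1 CPM), was within spread at each step. Its cluster 16 values rest on only 5 to 14 Clec5a UMIs per tumor. They ran from 113.8 CPM, in the tumor with 115 such cells, to 301.5 CPM. Pooled over all cells of cluster 16, Clec5a was at 176.1 CPM, so its first place depends on the measure.

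Clec9a was highest in the cDC1-like cells. Its level there was 266.7 ± 68.5 CPM (SD, n = 27, 154.0 to 400.9), above 152.8 ± 29.1 CPM in pDC-like cells (n = 6), which in turn lay beyond the spread of migratory dendritic cell-like cells at 20.8 ± 16.4 CPM. A Clec9a UMI was found in 73.93% of cDC1-like cells (median 6575.5 UMIs per cell), and in 24.25% with every cell thinned to 1000 UMIs. In pDC-like cells the shares were 29.04% and 11.32%. Clec10a was highest in those pDC-like cells, at 273.3 ± 85.2 CPM (n = 6), followed by cluster 14 at 136.1 ± 70.4 CPM (n = 44) and macrophage cluster 9 at 104.2 ± 90.4 CPM (n = 20), all within spread of the next. Cluster 14 had 8 of 10 macrophage markers at 100 CPM, but its 10 leading genes held Cd209a, a marker of type 2 dendritic cells, and none of the macrophage list, and only Cd209a of 6 markers of type 2 dendritic cells reached 100 CPM, so it was left unnamed. It had a Clec10a UMI in 31.36% of cells (12.09% thinned).

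T and NK cell clusters should lack these receptors. In 8 of the 9 such clusters no gene of the set passed 9.31 CPM. Cluster 12, whose leading genes include hemoglobin genes, held from 5.06 CPM of Clec9a to 139.0 CPM of Clec4n.

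**Figure D2:**
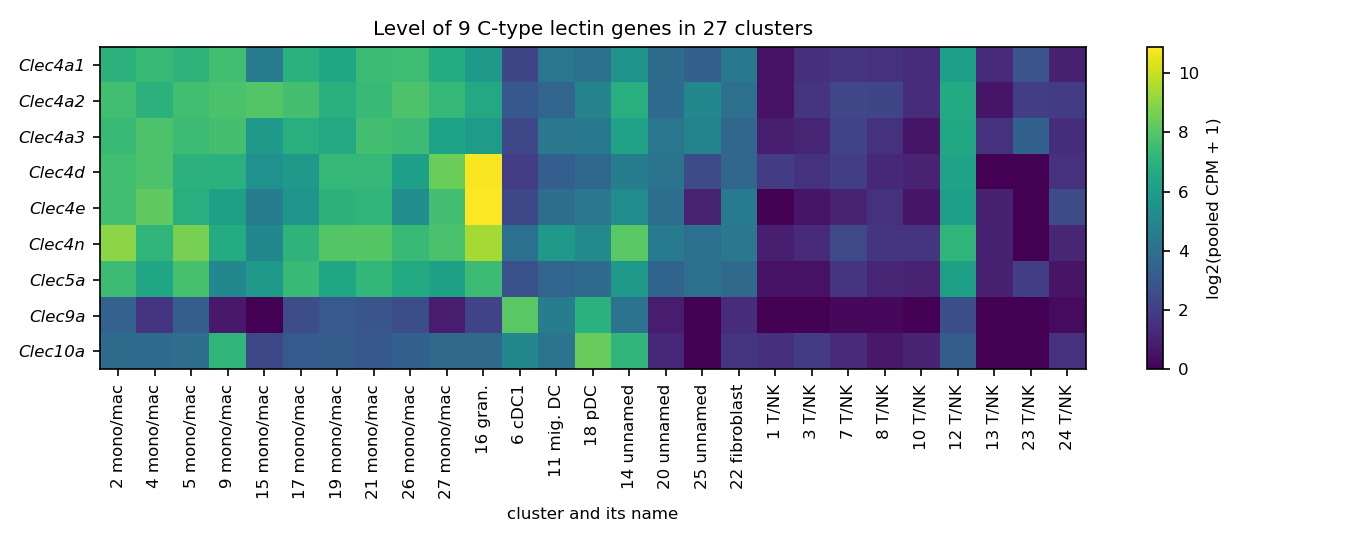
Level of the 9 genes (rows) in the 27 clusters (columns, with their names), as log2(CPM + 1) of the counts pooled over all tumors. The Clec4 genes and Clec5a are high across macrophage columns, and Clec4d and Clec4e peak in the granulocyte-like column. Clec9a is highest in the cDC1-like and pDC-like columns. Clec10a is highest in the pDC-like column, followed by cluster 14 and macrophage cluster 9.

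Across the 27 clusters, the gene whose log2(CPM + 1) was most like that of a Clec4a gene was a general macrophage gene or another Clec4a gene. Clec4a2 was most like Csf1r, the receptor of the macrophage growth factor CSF1 (Pearson r = 0.99), and Clec4a1 most like Lyz2, encoding lysozyme (0.98). Clec4a3 was most like Clec4a1 (0.98), with Csf1r next (0.98). Clec4d and Clec4e had each other among their 3 closest of 7375 genes (0.97). Clec5a was closest to the Fc receptor gene Fcgr4 (0.98) and Clec4n to Pilrb2 (0.97), with the endotoxin co-receptor gene Cd14 next (0.97). For Clec9a the closest genes were Tbc1d8 (0.89) and Kmo (0.88), and for Clec10a they were Gapt (0.85) and Rgs18 (0.82). Clec9a had an r of 0.24 to 0.47 with the Clec4 genes and Clec5a and of 0.73 with Clec10a. The 27 points share libraries, so these are descriptions.

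The first comparison asked whether macrophages of responder and non-responder strains differed in these genes, with 20 tumors against 18 summed over macrophages and both treatments averaged. Clec9a was higher in responders, and none of the other 8 genes passed the test. Clec9a had 1.01, 7.33 and 23.2 CPM (lowest, median and highest tumor) in responders and 1.12, 2.65 and 13.7 CPM in non-responders. The groups overlapped, with responder tumors reaching down to the lowest value of both groups, in a CC001 isotype tumor. Means were 9.44 ± 6.69 and 3.67 ± 3.05 CPM (SD). The difference was 1.38 ± 0.33 (log2, SE), with an adjusted p of 0.0064 (edgeR quasi-likelihood test, Benjamini-Hochberg over 11873 genes). Thus 1 of 9 genes was called, where 6.56% of all genes tested were (487 higher and 292 lower in responders). With scaling by library size alone in place of TMM that split became 339 higher and 529 lower, and the median of all genes went from -0.0045 to -0.05.

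This Clec9a difference rests on a few strains. It was 0.87 without CC002 (adjusted p = 0.11), 1.01 without CC079 (0.098) and 1.03 without pool 5, which holds both (0.061), so the call was lost each time. With 6 strain sums in place of tumors the difference was 1.71 and the adjusted p 0.83. Within pools 1 to 5 alone it was 1.69 (adjusted p = 0.053), and within pools 8 to 12 it was 1.06 (0.19). These sets of pools also differ in strains, with CC079 only in the first and CC036 and CC075 only in the second. Counts were low, from 5 to 264 Clec9a UMIs per classed tumor.

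Within single macrophage clusters Clec9a was higher in responders in cluster 26, with a difference of 1.77 ± 0.35 (adjusted p = 0.00075), and in cluster 2, with 1.33 ± 0.36 (0.027). Cluster 26 had 0.943, 7.22 and 19.8 CPM in responders and 0, 1.69 and 12.4 CPM in non-responders, with 3 non-responder tumors at 0. The cluster 26 call held without each strain or pool in turn (1.42 to 2.16, adjusted p at most 0.036) and with the pool as a block (1.89). Neither strain sums nor fits on pools 1 to 5 or 8 to 12 alone were run within single clusters. Tumors of 1 strain therefore still count there as separate samples. The cluster 2 call was lost without CC002 (0.56, 0.38), CC075 (1.45, 0.054), CC079 (1.07, 0.18) or pool 2, 5, 10 or 11 (0.88 to 1.35, 0.058 to 0.21). Cluster 26 took 28.3 ± 10.4% of macrophages in responder and 22.2 ± 9.62% in non-responder tumors. In cluster 26, 2 of 9 genes were called against 7.59% of all, in cluster 2, 1 of 9 against 3.83%, and in cluster 5, 0 of 8 against 4.3% (2 of 8 at an unadjusted p under 0.05), where Clec9a was too low to be tested and no alternative was run. Of all 8169 genes tested in cluster 5, 1368 had an unadjusted p under 0.05. Genes called higher and lower numbered 474 and 276 in cluster 26 and 219 and 143 in cluster 2, or 332 and 680, and 185 and 201, with library size alone. In cDC1-like cells Clec9a stood at 159.7, 273.8 and 400.9 CPM in 11 responder tumors and 154.0, 248.7 and 394.4 CPM in 13 non-responder tumors. These ranges nearly coincide. The difference was -0.04 ± 0.15 (adjusted p = 0.99), and 0 of the 2 genes tested there were called (0 at an unadjusted p under 0.05, DESeq2 0), against 0.452% of all. Over all cells it was 0.35 ± 0.28 (0.66). Whether the class difference itself differed between cell groups was not tested.

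Markers of cDC1 moved in part with Clec9a in macrophages. Of 6 marker genes 4 could be tested, and Irf8 (0.33, adjusted p = 0.0043) and Cadm1 (0.83, 0.036) were higher in responders, while Wdfy4 (-0.17, 0.25) and Naaa (0.0031, 0.998) did not pass. The 6 markers summed to 393.6, 471.0 and 667.3 CPM in responders and 339.8, 427.2 and 597.2 CPM in non-responders. Nearly all of this sum came from the 4 tested genes. Irf8, Cadm1, Naaa and Wdfy4 averaged 169.7, 127.9, 143.7 and 59.76 CPM in responders and 138.9, 75.0, 148.0 and 69.55 CPM in non-responders. Xcr1, a chemokine receptor gene of cDC1, averaged 1.07 CPM against 0.314 CPM and was at 0 in 3 responder and 2 non-responder tumors. Snx22, the other untested marker, was lower in responders, at 0.523 CPM against 0.851 CPM, and at 0 in 4 and 0 tumors. There were 8.12 Clec9a UMIs per Xcr1 UMI in macrophages of responders and 8.55 in those of non-responders, and 1.39 and 1.53 in cDC1-like cells. Against Snx22 the classes were not alike in macrophages, with 1186 Clec9a and 70 Snx22 UMIs in responders and 402 and 108 in non-responders. In cDC1-like cells these counts were 1019 and 229 in responders and 1157 and 310 in non-responders. Of 6 pDC markers 3 could be tested, and Ccr9 was higher in responders (0.59, 0.021; means of 1.65 and 1.11 CPM), while Bst2 (0.24, 0.17) and Tcf4 (-0.09, 0.56) did not pass. The pDC list summed to 463.5, 641.1 and 776.1 CPM in responders and 426.9, 587.9 and 748.9 CPM in non-responders, while 3 of its markers were too low to be tested. Of these Siglech averaged 0.160 and 0.0506 CPM and was at 0 in 6 responder and 12 non-responder tumors, Klk1 averaged 0.0215 and 0.0480 CPM and was at 0 in 18 and 14, and Ly6d averaged 1.06 and 0.0733 CPM and was at 0 in 16 and 12. Of 10 macrophage markers C1qb was higher (0.46, 0.037) and Ccr2 lower (-0.48, 0.012) in responders. Of 6 B cell markers 2 could be tested. The immunoglobulin gene Igkc was lower in responders (-4.37, 0.0058; means of 1.10 and 29.0 CPM, at 0 in 7 and 6 tumors), and Cd79b did not pass (0.07, 0.91). The B cell list summed to 4.359, 7.054 and 13.91 CPM in responders and 2.261, 8.326 and 391.5 CPM in non-responders. Its medians were thus close, and the highest tumors differed most. The part of cDC1, pDC or B cell RNA, or of macrophage state, in the Clec9a difference was not tested.

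A Clec9a UMI was found in 891 of 27888 responder macrophages (3.195%, 95% Wilson interval 2.995 to 3.408) and in 320 of 28157 non-responder macrophages (1.136%, 1.019 to 1.267), at median depths of 3578 and 3662 UMIs. Thinned to 1000 UMIs, which left out 1635 and 1457 cells, the shares were 0.816% and 0.280%. In T and NK cells of the same tumors they were 0.0137% and 0.0244%, and 0.0936% and 0.0520% without thinning (5 of 5345 and 2 of 3845 cells, median 2010 and 1855 UMIs). The macrophage shares lay above those of T and NK cells in both classes. T and NK cells cannot show whether cDC1 cells or doublets with them stand among the macrophages, which was not tested. Intervals cover counting error only.

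Clec10a had lower means in responders in macrophages, cluster 14 and all cells, and the difference passed the adjusted threshold in macrophage cluster 26. In macrophages it had 2.26, 8.04 and 27.6 CPM (lowest, median and highest tumor) in responders and 6.14, 13.7 and 44.0 CPM in non-responders. The ranges overlapped widely. The difference was -0.79 ± 0.29 (log2, SE) with an adjusted p of 0.095, so it did not pass, though DESeq2 gave 0.042. Macrophage cluster 9 held 15.12% of the macrophage UMIs of Clec10a. It took 1.36 ± 1.98% of macrophages in responder and 1.94 ± 1.36% in non-responder tumors, and its part in the difference was not tested. In cluster 26 the Clec10a difference passed, at -0.996 ± 0.28 (0.020), with 0, 5.98 and 17.3 CPM in responders and 3.07, 12.6 and 41.2 CPM in non-responders. In cluster 14, which held 45.82% of its UMIs, responders had 31.0, 94.9 and 205.7 CPM and non-responders 70.3, 169.3 and 337.0 CPM, a difference of -0.74 ± 0.20 (0.090). In cDC1-like cells it had 7.38, 36.5 and 77.4 CPM in responders and 0, 23.5 and 88.4 CPM in non-responders, a difference of 0.31 ± 0.36 (0.88). All 9 genes were tested in cluster 14 and 0 were called (2 at an unadjusted p under 0.05, DESeq2 0), against 0.488% of all genes. Of all 7179 genes tested in that cluster 713 had an unadjusted p under 0.05. Over all cells the difference was -0.94 ± 0.28 (0.050), just outside the threshold at 0.05032. There 0 of 9 genes were called (2 at an unadjusted p under 0.05), against 3.2% of all genes (264 higher and 168 lower, or 231 and 225 with library size alone), and DESeq2 called Clec10a (0.016). Over all cells 1891 of all 13503 genes tested had an unadjusted p under 0.05. In bulk sums over all cells, fewer cells of a type and less RNA per cell cannot be told apart.

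The Clec10a difference was smaller without CC036, at -0.15 in macrophages (adjusted p = 0.79), -0.39 over all cells (0.47), -0.34 in cluster 14 (0.51) and -0.31 in cluster 26 (0.53), where the call was lost. The cluster 26 call was also lost without CC002 (-0.82, 0.11), without pool 8 (-0.82, 0.052), 9 (-0.75, 0.14) or 10 (-0.87, 0.080), and with the pool as a block (-0.74, 0.056). Without CC079, whose tumors had low Clec10a for a non-responder strain, it was -1.14 in macrophages (0.017) and -0.99 in cluster 2 (0.025) and passed, as it did in macrophages without pool 1 (-0.95, 0.045). Leaving out a strain or pool could also gain the call over all cells (lowest adjusted p 0.0070) and in cluster 14 (lowest adjusted p 0.0027). Of 6 markers of type 2 dendritic cells 3 could be tested in macrophages and 0 were called by edgeR (1 at an unadjusted p under 0.05, where 2368 of all 11873 genes had one). The sum of the list had medians of 47.3 CPM in responders and 61.5 CPM in non-responders, within ranges of 19.9 to 137.2 and 25.4 to 142.9 CPM. Over all cells all 6 were tested, and Cd209a was lower in responders (-1.18 ± 0.33, adjusted p = 0.036; means of 14.03 and 32.24 CPM) while the other 5 did not pass. The list summed there to 37.96, 99.03 and 208.3 CPM in responders and 41.99, 128.0 and 231.1 CPM in non-responders. In cluster 14 0 of 6 were called by edgeR (1 at an unadjusted p under 0.05, where 713 of all 7179 genes had one), and Cd209a had -0.70 ± 0.20 (0.10; 194.4 and 314.8 CPM). There the list summed to 188.8, 417.7 and 676.7 CPM in responders and 335.7, 515.2 and 791.9 CPM in non-responders. In cluster 26 only Cd80 could be tested and it did not pass (0.30, 0.42). The part of such cells in the Clec10a difference was not tested.

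**Figure D3:**
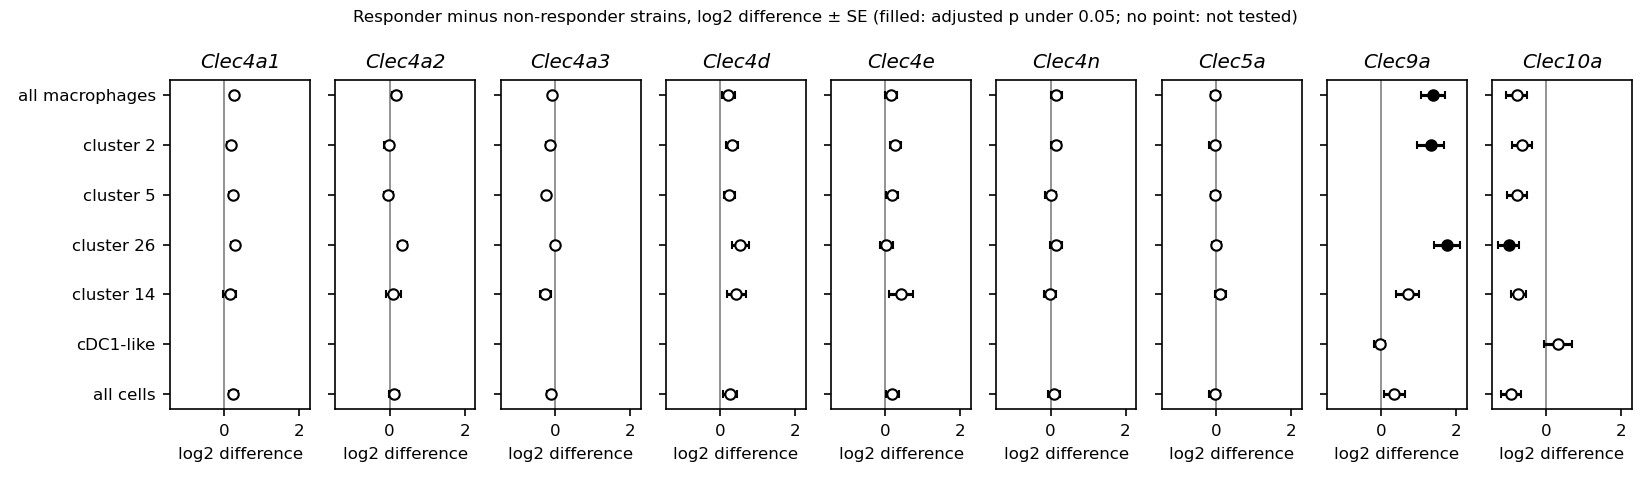
Difference of responder minus non-responder strains for each gene (log2, horizontal axis) with its SE, in macrophages, in macrophage clusters 2, 5 and 26, in cluster 14, in cDC1-like cells and in all cells (rows). Filled points have an adjusted p under 0.05: Clec9a in macrophages (1.38) and in clusters 2 (1.33) and 26 (1.77), and Clec10a in cluster 26 (-0.996).

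The other 7 genes showed smaller class differences in macrophages, none of which passed. Clec4a1 had 101.9, 158.3 and 206.6 CPM in responders and 68.1, 139.5 and 202.4 CPM in non-responders, a difference of 0.27 ± 0.10 (adjusted p = 0.10). It passed without CC080 (0.37, 0.025), without pool 4 (0.34, 0.039) and without the 2 CC080 tumors that carry 1 animal identifier (0.33, 0.030). Clec4a2 had 0.18 ± 0.12 (0.45) and passed without CC080, the strain of its highest level (0.50, 0.0011). Clec4a3 had -0.07 ± 0.09 (0.75). Among receptors coupled to Fcer1g, Clec4d had 0.22 ± 0.17 (0.53), Clec4e 0.15 ± 0.16 (0.67) and Clec4n 0.16 ± 0.15 (0.63). Clec5a had -0.01 ± 0.12 (0.99). In cluster 26 Clec4a1 passed without CC080 (0.41, 0.012) or pool 4 (0.39, 0.016), and Clec4a2 without CC075 (0.42, 0.047), CC080 (0.65, 1.1e-05), pool 3 (0.44, 0.012) or pool 4 (0.41, 0.034) and with the pool as a block (0.34, 0.017). Clec4d passed there without CC001 (0.83, 0.039) or CC002 (0.78, 0.033), and in cluster 2 without CC002 (0.52, 0.037).

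The next comparison was aPD1 against isotype within each class, in macrophages. Clec9a was higher with aPD1 in every responder pair but did not pass the test. Isotype tumors of responder strains had 1.01, 6.22 and 17.8 CPM (lowest, median and highest) and aPD1 tumors 3.14, 11.9 and 23.2 CPM. The groups overlapped, but within each of the 10 pairs of tumors that shared pool and strain the aPD1 tumor was higher. The difference was 1.16 ± 0.43 (log2, SE) with an adjusted p of 0.64, and 0.0% of all genes were called in this comparison. Of the 9 genes 0 were called, and 4 had an unadjusted p under 0.05 (DESeq2 called 0 of 9). Over all genes 821 had an unadjusted p under 0.05, and DESeq2 called 2. With the pair as a block the Clec9a difference was 1.11 ± 0.28 (0.16), and 4 genes were called in all.

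In non-responder strains Clec9a had 1.12, 3.22 and 13.7 CPM in isotype and 1.27, 2.18 and 7.23 CPM in aPD1 tumors. The aPD1 tumor was higher in 3 of 9 pairs. The difference was -0.55 ± 0.49 (adjusted p = 1), where 0 of the 9 genes and 0.0% of all genes were called (0 of 9 and 91 of all genes at an unadjusted p under 0.05, DESeq2 0). The difference between the classes in this shift, the interaction, was 1.70 ± 0.65 for Clec9a with an adjusted p of 0.87, or 1.54 ± 0.44 (0.26) with the pair as a block. Again 0 of 9 genes and 0.0% of all genes were called (3 of 9 and 680 of all at an unadjusted p under 0.05, DESeq2 1 of all). Isotype and aPD1 tumors never shared a hashtag, so treatment and hashtag cannot be told apart.

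**Figure D4:**
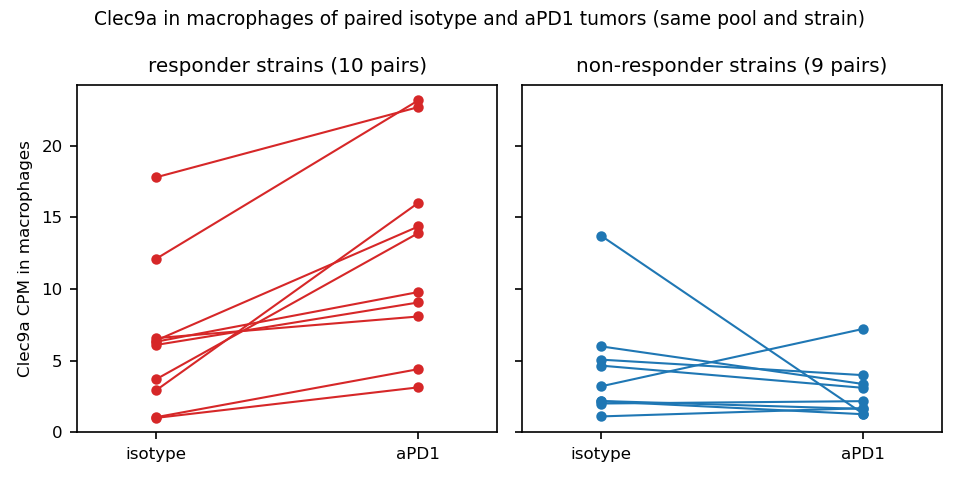
Clec9a CPM in macrophages (vertical axis) of isotype and aPD1 tumors; each line joins the 2 tumors of 1 strain in 1 pool, for 10 responder pairs (left) and 9 non-responder pairs (right). All 10 responder lines rise and 3 of the 9 non-responder lines do.

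Several other genes were higher with aPD1 in most responder pairs, and none passed the test. Clec4a3 was higher with aPD1 in 8 of 10 pairs, with a median of 180.8 CPM against 143.9 CPM and a difference of 0.34 ± 0.12 (adjusted p = 0.63). Clec4d was higher in 8 of 10 pairs (150.1 against 111.7 CPM, 0.52 ± 0.24, 0.71), and so was Clec4a1 (173.6 against 143.8 CPM, 0.28 ± 0.14, 0.71). In non-responders these 3 genes were higher in 3, 4 and 4 of 9 pairs, with differences of -0.10 ± 0.13, -0.04 ± 0.25 and -0.14 ± 0.14. Clec4e was higher in 7 of 10 responder and 7 of 9 non-responder pairs, and so was Clec4n. Clec4a2 was higher in 4 of 10 and 5 of 9 pairs, with differences of -0.0093 ± 0.17 and 0.11 ± 0.18. Clec5a was higher in 6 of 10 and 7 of 9, with 0.057 ± 0.17 and 0.32 ± 0.18. For Clec10a the counts were 4 of 10 and 4 of 9.

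Since class is made of strains, levels were compared across all 8 host strains, in a test for any difference among them. The classed tumors are the same as above. Of the 9 genes 6 were called, where 51.7% of all 12510 genes tested were. With the pool as a block 1623 genes in all were called, and 5 of the 6 kept their call. Adjusted p-values of the strain test below are from the fit without this block unless stated. Clec4a2 had an adjusted p of 1.7e-06 and means from 260.1 ± 52.6 CPM in CC080 (SD, n = 6) and 227.3 ± 36.9 CPM in CC001 (n = 8) down to 130.7 ± 27.5 CPM in CC036. The lowest CC080 tumor, at 200.1 CPM, lay above the highest CC036 tumor, at 162.3 CPM. These strains at both ends are non-responders, and their tumors shared no pool.

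Clec9a ranged over 3.27 log2 units among strains (adjusted p = 2.2e-05). Means were 16.1 ± 6.47 CPM in CC002, 9.80 ± 4.72 in B6, 8.37 ± 4.47 in CC075, 5.24 ± 4.27 in CC001, 4.78 ± 3.83 in CC007, 4.66 ± 4.68 in CC080, 4.60 ± 1.70 in CC036 and 1.74 ± 0.463 in CC079. Of the neighbours in this order, only CC036 and CC079 were apart beyond their SDs. The unclassed B6 hosts came second and the responder strain CC001 stood beside CC007 and 2 non-responder strains. The summed cDC1 markers were highest in CC002 (598.4 CPM) and lowest in CC079 (380.0 CPM). As said above, nearly all of that sum came from Irf8, Cadm1, Naaa and Wdfy4, and Xcr1 and Snx22 added little.

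Clec10a ranged over 2.09 log2 units (adjusted p = 0.00025). CC036 had 34.0 ± 10.8 CPM, beyond the spread of the next strain, CC080, at 15.3 ± 7.72 CPM, and CC002 was lowest at 7.05 ± 1.38 CPM. CC036 tumors were at 14.1 to 44.0 CPM. Without CC036 the range was 0.96 and the adjusted p 0.41, so the call was lost.

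The neighbouring genes Clec4d and Clec4e had the same highest and lowest strains. Clec4d had 249.4 ± 67.9 CPM in CC075 and 103.3 ± 36.7 CPM in CC002 (range 1.29 log2 units, adjusted p = 0.00068). Clec4e had 181.5 ± 37.3 CPM in CC075 and 88.7 ± 28.7 CPM in CC002 (1.05, 0.00021). Both of these strains are responders, so the widest gaps lay within 1 class, and their tumors shared no pool. Without CC075 the Clec4d call was lost (0.72, 0.22). Clec4a1 ranged over 0.65 log2 units (0.027), from 167.4 ± 28.5 CPM in CC001 to 107.3 ± 30.4 CPM in CC007, and lost its call under several settings, among them the pool as a block (0.12), library size alone (0.055), and without CC001 (0.077), CC036 (0.30) or pool 1, 2, 8 or 9 (0.057 to 0.094). Clec4n (0.78, 0.086), Clec5a (0.66, 0.19) and Clec4a3 (0.41, 0.32) did not pass. Clec4n passed without pool 6 (0.032) or pool 10 (0.019), and Clec5a without pool 10 (0.013).

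**Figure D5:**
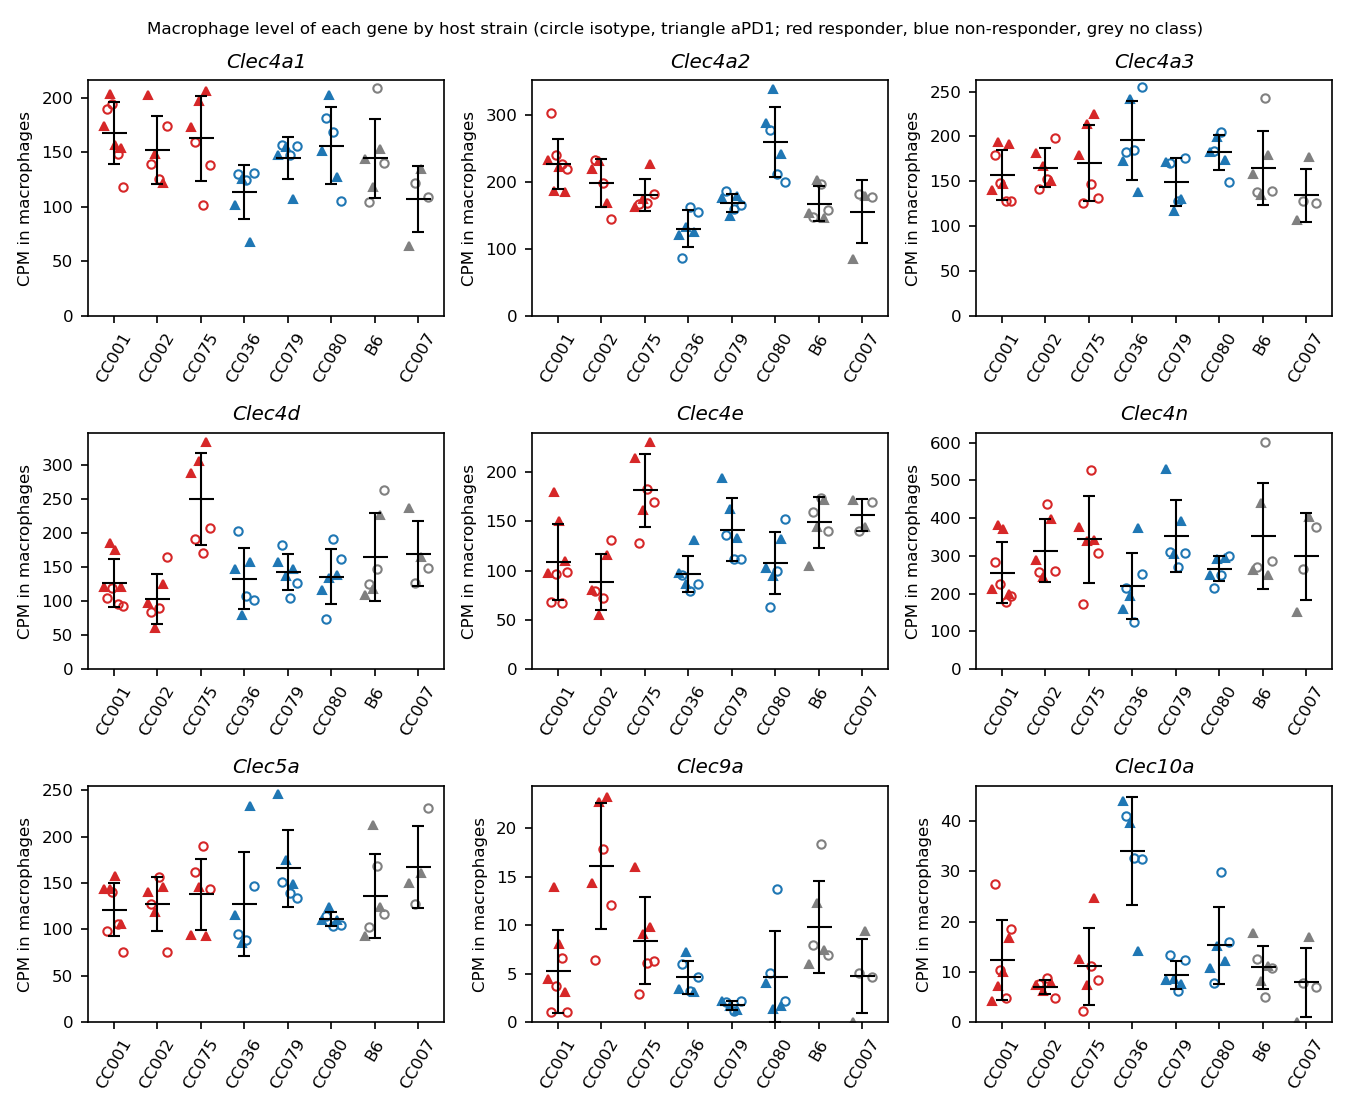
Level of each gene in macrophages (CPM, vertical axes) by host strain; each point is 1 tumor (circle isotype, triangle aPD1; red responder, blue non-responder, grey no class), and bars give the mean and SD. Clec10a stands highest in CC036 (34.0 CPM), Clec9a in CC002 (16.1 CPM), and Clec4d and Clec4e in CC075 (249.4 and 181.5 CPM).

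Of 21 signalling partner genes of these receptors, all tested in macrophages, 3 rose and 0 fell in responders, where 6.56% of all genes were called in either direction. They were Hcst, encoding the adaptor DAP10 (0.31 ± 0.08, adjusted p = 0.0088), Fcer1g (0.21 ± 0.07, 0.046) and the phosphatase gene Ptpn6, encoding SHP-1 (0.17 ± 0.05, 0.046). Tyrobp had 0.16 ± 0.06 (0.076), Syk 0.09 ± 0.15 (0.82) and Card9 -0.06 ± 0.09 (0.77). The median over the list was 0.02, against -0.0045 over all genes. With library size alone only Hcst passed (0.26, 0.019), and Fcer1g (0.17, 0.11) and Ptpn6 (0.12, 0.18) did not. Of the 21 genes 0 were called without CC001, in pools 1 to 5 alone (where Hcst had 0.26, 0.18) and with 6 strain sums (0.31, 0.86), and 1 in pools 8 to 12 alone and without CC002, CC036, CC080 or any of pools 2, 4, 5 and 8 to 11. In cluster 26 5 of 21 rose, against 7.59% of all genes called. By edgeR 0 of 21 were called in cluster 2 (4 at an unadjusted p under 0.05, DESeq2 0), in cluster 5 (3) and over all cells (2, DESeq2 0), 0 of 20 in cluster 14 and 0 of 16 in cDC1-like cells (0 in both, DESeq2 0). An unadjusted p under 0.05 was held by 1587 of all 9450 genes tested in cluster 2, 1368 of 8169 in cluster 5 and 1891 of 13503 over all cells. In the aPD1 comparisons and their interaction 0 of 21 were called (0 at an unadjusted p under 0.05, DESeq2 0), and 16 of 21 were called among strains, against 51.7% of all genes. With the pool as a block 2 of 21 were, where 1623 of all 12510 genes were.

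Of 22 other C-type lectins 14 could be tested, and 2 rose and 4 fell in responders, against 6.56% of all genes called. Without CC002 1 was called, without pool 5 2, without CC036, pool 2 or pool 4 3, in pools 8 to 12 alone 1 and with 6 strain sums 0 (3 at an unadjusted p under 0.05, where 754 of all 14571 genes had one). Clec1b, a receptor of podoplanin, rose (0.91 ± 0.25, adjusted p = 0.018), as did the inhibitory receptor gene Clec12a (0.35 ± 0.10, 0.024), which did not pass with library size alone (0.30, 0.057). Clec2i fell (-0.997 ± 0.25, 0.011), as did the scavenger receptor genes Olr1 (-0.81 ± 0.21, 0.013) and Colec12 (-0.83 ± 0.23, 0.026), and the sixth was the mannose receptor gene Mrc1 (-0.58 ± 0.17, 0.034), whose call was lost with the pool as a block (-0.53, 0.066). Mgl2, the paralog of Clec10a, had -0.83 ± 0.31 (0.11). Over all cells 0 rose and 5 fell of 15 tested, against 3.2% of all genes, and the 5 were Olr1, Cd209a, Clec2i, Colec12 and Mrc1. In cluster 2 0 rose and 2 fell of 10 (3.83% of all genes), in cluster 5 1 rose and 5 fell of 9 (4.3%), and in cluster 26 3 rose and 4 fell of 10 (7.59%). By edgeR 0 of 10 were called in cluster 14 (1 at an unadjusted p under 0.05, DESeq2 0) and 0 of 6 in cDC1-like cells (3, DESeq2 0). An unadjusted p under 0.05 was held there by 713 of all 7179 and 384 of all 4423 genes tested. The median in macrophages was -0.09, against -0.0045 over all genes. With aPD1 0 of 14 were called in either class or in the interaction (1, 3 and 3 at an unadjusted p under 0.05, DESeq2 0), and 14 of the 16 tested were called among strains, against 51.7% of all genes. With the pool as a block 6 of 16 were, where 1623 of all 12510 genes were.

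The shares of cDC1-like cells, cluster 14 and granulocyte-like cells were compared between classes, within each treatment, by an exact two-sided permutation test over tumors (92378 arrangements, 6 tests). The share of pDC-like cells, which had the highest Clec10a level, was not compared. None passed after adjustment. Cluster 14, which held the largest share of Clec10a UMIs of any cluster, took 4.44 ± 1.95% of cells in 10 responder isotype tumors and 6.68 ± 1.76% in 9 non-responder isotype tumors, and its exact p was 0.019 before and 0.12 after adjustment. With aPD1 the shares were 4.21 ± 1.82% and 5.65 ± 1.68% (exact p = 0.093, adjusted 0.19). As differences within pools, cluster 14 had -2.705 percentage points in isotype tumors (exact sign permutation p = 0.031) and -1.871 with aPD1 (0.023). Both had an adjusted p of 0.094. The paper, with its own test, reports the isotype difference in this cluster as significant. The cDC1-like cells took 1.21 ± 0.686% against 1.59 ± 0.888% in isotype tumors (exact p = 0.31, adjusted 0.47) and 1.34 ± 0.634% against 1.31 ± 0.710% with aPD1 (exact p = 0.93, adjusted 0.93). Granulocyte-like cells took 1.09 ± 1.80% against 0.561 ± 0.384% in isotype tumors (exact p = 0.58, adjusted 0.70), where 1 CC001 tumor held 6.002%, and 0.600 ± 0.428% against 0.305 ± 0.203% with aPD1 (exact p = 0.079, adjusted 0.19). Shares also depend on the sort to 90% CD45+ cells.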

How the data were processed

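The authors aligned 10x 5′ reads to GRCm38 (mm10) with Cell Ranger, assigned hashtags, removed cells high in mitochondrial or ribosomal transcripts, and clustered cells with Seurat 5.0.1. They deposited raw UMI counts per gene and cell, all whole numbers, with each cell's pool, strain, treatment and cluster. The paper's response class was added per strain. No doublet caller was run here, and how doublets were treated is not given in the sources used here. Members and gene lists were chosen with earlier results of these data known.

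A cell type name needed 3 or more of its markers, and 50% of them, to reach 100 CPM in a cluster, and among names that met this the one of highest mean log2 ratio to all clusters was taken. No name was given where none met this, or where a different type had more markers among the cluster's 10 leading genes by fold (minimum 50 CPM), as in clusters 14 and 25. The planned type 2 dendritic cell comparison was run on cluster 14, left unnamed, a choice made after values were seen. Counts were summed per tumor (at least 20 cells) and tested with edgeR 4.0.16 (quasi-likelihood, TMM, filterByExpr, threshold 0.05), in R 4.3.3. Classed tumors entered 1 fit of 4 groups (class by treatment), and all 48 tumors entered the strain test. Cell shares were tested by exact permutation. Each of the 9 genes was in every comparison that could test it. For single clusters and all cells together, the genes named were chosen after values were seen. Of the other lists it names up to 5 genes of smallest adjusted p. A few further genes (Tyrobp, Syk, Card9, Mrc1, Mgl2 and single cell type markers) were named after their values were seen.

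Alternatives were DESeq2 1.42.0, library size alone, no low-count filter, pool or pair as a block, batches of pools, strain sums, leaving out small tumors, and leaving out each strain or pool. The 2 CC080 tumors that carry 1 animal identifier were also left out. Alternatives for clusters 2 and 26 were added after seeing the data. Batches of pools, strain sums and leaving out the 2 CC080 tumors were run in macrophages alone. The scripts were tested on simulated data. UMIs per tumor ranged from 88816 to 17713491. The labels place 4 specimens in each pool library. Deviations from group means over genes correlated with a mean r of 0.25 within a pool (55 pairs), 0.40 within a pool and strain (19 pairs) and -0.05 between pools (648 pairs). Fits with the pool, or the isotype and aPD1 tumor of 1 strain in 1 pool, as a block were alternatives.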

Additional observations from a re-analysis of the deposited data

Results flagged for a closer look

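Of 48 groups of 4 to 10 tumors examined for a sample far from the others, 3 held one, and chance alone gives about 1 in 20 groups. Clec9a in macrophages was at 13.73 CPM in the CC080 isotype tumor of pool 4, where the other 8 non-responder isotype tumors lay between 1.116 and 6.004 CPM. Clec9a was also at 7.227 CPM in the CC036 aPD1 tumor of pool 9, where the other 8 non-responder aPD1 tumors lay between 1.27 and 3.996 CPM. Granulocyte-like cells, the cells with the highest Clec4d and Clec4e levels, made up 6.002% of the CC001 isotype tumor of pool 12, where the other 9 responder isotype tumors lay between 0.05359 and 1.734%. Their causes were not tested.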

How the results depend on the processing

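Class rests on 3 strains each, treatment and hashtag cannot be told apart, and Clec9a and Clec10a counts per tumor were low. The Clec9a difference between classes in macrophages kept its direction under every setting run, and its call under the pool block (1.38), DESeq2, library size alone, no low-count filter and without tumors under 500 cells. The call was lost without CC002, CC079 or pool 5, within either batch of pools and with strain sums. The causes of the changes below were not tested.

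Genes called for class in macrophages (779) numbered 331 in pools 1 to 5 alone, 332 in pools 8 to 12 alone and 3 with strain sums. Without a low-count filter, 132 were called in cDC1-like cells and 99 in cluster 14. With the replicate block of pool, 71 were called in cluster 14, 933 in cluster 2 (362 without it) and 1623 among strains. For aPD1 in responders DESeq2 called 2 and the pair block 4, and for the interaction each called 1. Leaving out each strain or pool in turn gave 478 to 939 genes for class in macrophages, 246 to 598 over all cells, 7 to 30 in cDC1-like cells, 15 to 76 in cluster 14, 200 to 677 in cluster 2, 392 to 798 in cluster 26 and 0 to 1 for aPD1 in responders. The alternatives in clusters 2 and 26 were chosen after seeing the data. Leaving out each strain or pool gave 0 to 3 signalling partners and 1 to 7 other C-type lectins called for class in macrophages.

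Small differences changed sign. With the pool block these were Clec5a over all cells (0.024) in macrophages (0.049) and in cluster 2 (0.060), Clec9a in cDC1-like cells (0.048) and Clec4n in cluster 14 (0.031). With the pair block they were Clec4d with aPD1 in non-responders (0.0067) and Clec10a (0.019) and Clec4a2 (0.0100) with aPD1 in responders. In cluster 26 with library size alone they were Clec4a3 (-0.071), Clec4e (-0.047) and Clec5a (-0.056), and with DESeq2 Clec4a3 (-0.0068). In pools 1 to 5 alone the class differences in macrophages were -0.25 for Clec4d, -0.33 for Clec4e and -0.066 for Clec4n. Clec5a had 0.080 in pools 8 to 12, 0.0078 with strain sums and 0.013 without tumors under 500 cells. The class difference in cDC1-like share with aPD1 was -0.215 percentage points within pools, the paired comparison. That in granulocyte-like share of isotype tumors was -0.0164 points without the CC001 tumor of pool 12, an alternative added after seeing the data. Of the set, the blocks changed the calls of Clec4a1 among strains and, in cluster 26, of Clec10a (-0.74, lost) and Clec4a2 (0.34, adjusted p = 0.017, gained), and no other.

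In macrophages, leaving out each strain or pool in turn gave class differences (log2) of -0.024 to 0.50 for Clec4a2, -0.18 to 0.0068 for Clec4a3, -0.19 to 0.40 for Clec4d, -0.17 to 0.32 for Clec4e and -0.12 to 0.16 for Clec5a. Over all cells they were -0.072 to 0.38 for Clec4a2, -0.16 to 0.48 for Clec4d, -0.13 to 0.42 for Clec4e, -0.088 to 0.33 for Clec4n, -0.17 to 0.19 for Clec5a and -0.053 to 0.87 for Clec9a. In cluster 14 they were -0.030 to 0.26 for Clec4a1, -0.30 to 0.28 for Clec4a2, -0.20 to 0.21 for Clec4n and -0.084 to 1.20 for Clec9a. In cluster 2 they were -0.21 to 0.25 for Clec4a2, -0.035 to 0.52 for Clec4d, -0.045 to 0.40 for Clec4n and -0.17 to 0.22 for Clec5a, and in cluster 26 -0.13 to 0.088 for Clec4a3, -0.13 to 0.83 for Clec4d, -0.24 to 0.39 for Clec4e, -0.038 to 0.52 for Clec4n and -0.13 to 0.19 for Clec5a. In cDC1-like cells they were -0.15 to 0.30 for Clec9a and -0.24 to 0.52 for Clec10a. For aPD1 in responder macrophages they were -0.085 to 0.15 for Clec4a2, -0.19 to 0.32 for Clec5a and -0.53 to 0.53 for Clec10a. For aPD1 in non-responder macrophages they were -0.032 to 0.17 for Clec4a2, -0.19 to 0.0073 for Clec4a3, -0.14 to 0.047 for Clec4d and -0.99 to 0.15 for Clec9a. For the interaction they were -0.19 to 0.036 for Clec4a2, -0.060 to 0.28 for Clec4e, -0.26 to 0.061 for Clec4n, -0.50 to 0.0057 for Clec5a and -0.33 to 0.73 for Clec10a. All of these ranges cross 0, and so their directions depend on single strains or pools.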
